A study of Rattus norvegicus with 15 samples.

Results

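The genes described here are the 3 main subunits of the brain's NMDA-type glutamate receptor, Grin1 (ENSRNOG00000011726, protein GluN1), Grin2a (ENSRNOG00000033942, GluN2A) and Grin2b (ENSRNOG00000008766, GluN2B). They were chosen by gene identity, as 3 of the 22050 Ensembl rat gene IDs in the count table, and all 3 passed the filter on low counts in every comparison. The names came with the IDs. The RefSeq table used here lists the 3 symbols but pairs 0 of its 47357 genes with an Ensembl ID, so the pairing of name and ID was not checked. Counts are per gene, and the splice forms of a gene were pooled.

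NMDA receptors are glutamate-gated cation channels that open only when glutamate and a co-agonist are bound and the membrane is depolarised, which makes them detectors of coincident activity at synapses. Each receptor holds GluN1, which binds the co-agonist, together with GluN2 subunits, which bind glutamate and set the kinetics of the channel. In the rodent forebrain GluN2B is the leading GluN2 subunit around birth, and GluN2A increases over the following weeks.

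The animals in every group were Sprague Dawley rats at postnatal day 5, an age before most of that GluN2A increase, and each homogenate pooled 5 whole brains. RNA-seq used unfractionated homogenate (5 control libraries). Footprints, the RNA pieces that a ribosome shields from RNase I, were made from the pellet below a sucrose gradient, named for its RNA granules. The footprint libraries were 5 vehicle libraries, 3 with cycloheximide (an inhibitor of translation elongation, 100 ug/ml in the homogenisation buffer) and 2 with salt (pellet held in 400 mM NaCl, then returned to the 150 mM of the buffer before digestion). The labels name no engineered allele, and the RNA-seq used here has no cycloheximide or salt group. The 3 comparisons below share the 5 vehicle libraries. Bulk tissue cannot tell fewer cells of a type from less RNA per cell. The labels do not say whether libraries came from separate homogenates, so the p-values measure the spread between libraries, which may be technical.

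The libraries formed a deep and a shallow set. In 6 genes, 9 libraries had empty cells: vehicle, cycloheximide and RNA libraries 1 to 3. They held 19223750 to 53645452 counts, and the other 6 libraries held 941546 to 2808669. The shallow set comprised vehicle and RNA libraries 4 and 5 and both salt libraries. All cycloheximide libraries were therefore deep and both salt libraries shallow. The tissue label was not checked against marker genes, because no marker symbol could be matched to a row of the table.

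Levels are given as CPM, the count of a gene scaled to a library total of 1000000. CPM is not corrected for transcript length, so the levels of a gene are compared between libraries, not with those of another gene.

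Grin1, the obligatory subunit, had 88.0, 121, 136, 88.4 and 186 CPM in RNA libraries 1 to 5. Its vehicle footprints had 186, 132, 122, 246 and 190 CPM. Both groups spanned about the same relative range, and RNA library 5 lay above footprint libraries 2 and 3 and close to libraries 1 and 5. With cycloheximide the footprint levels were 228, 110.0 and 176 CPM, and with salt they were 213 and 186 CPM. Among the genes detected in a library, Grin1 lay between percentiles 81.9 and 94.0 in all 15 libraries, from 201 to 6750 counts.

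Grin2a, the GluN2 subunit that dominates later in life, had 24.4, 45.0, 50.2, 30.0 and 38.0 CPM in RNA libraries 1 to 5. Its vehicle footprints had 33.8, 9.70, 9.82, 31.1 and 31.3 CPM. Vehicle footprint libraries 2 and 3 were low and the other 3 were close to each other. The same order was seen with cycloheximide, where library 1 had 26.0 CPM and libraries 2 and 3 had 6.27 and 7.81 CPM. The salt libraries had 43.5 and 51.8 CPM, the highest footprint levels of the gene. These rest on few reads, 41 and 60 counts, with 95% Wilson intervals of 32.1 to 59.1 and 40.2 to 66.6 CPM. In vehicle libraries 4 and 5 the counts were 59 and 88. Intervals cover counting error only, not the spread between libraries. No molecular identifier separates repeated copies of a fragment, so the intervals may be too narrow even for counting error.

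Grin2b, the leading GluN2 subunit at this age, had 272, 375, 425, 229 and 315 CPM in RNA libraries 1 to 5. Its vehicle footprints had 388, 163, 145, 661 and 443 CPM, again with libraries 2 and 3 at the bottom. Cycloheximide libraries had 369.6, 110.2 and 133 CPM, and salt libraries 549 and 498 CPM. Grin2b footprints therefore differed by 4.55 times between the highest and the lowest vehicle library, against 1.86 times between RNA libraries. The corresponding factors were 2.01 and 2.12 for Grin1, and 3.49 and 2.05 for Grin2a.

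**Figure D1:**
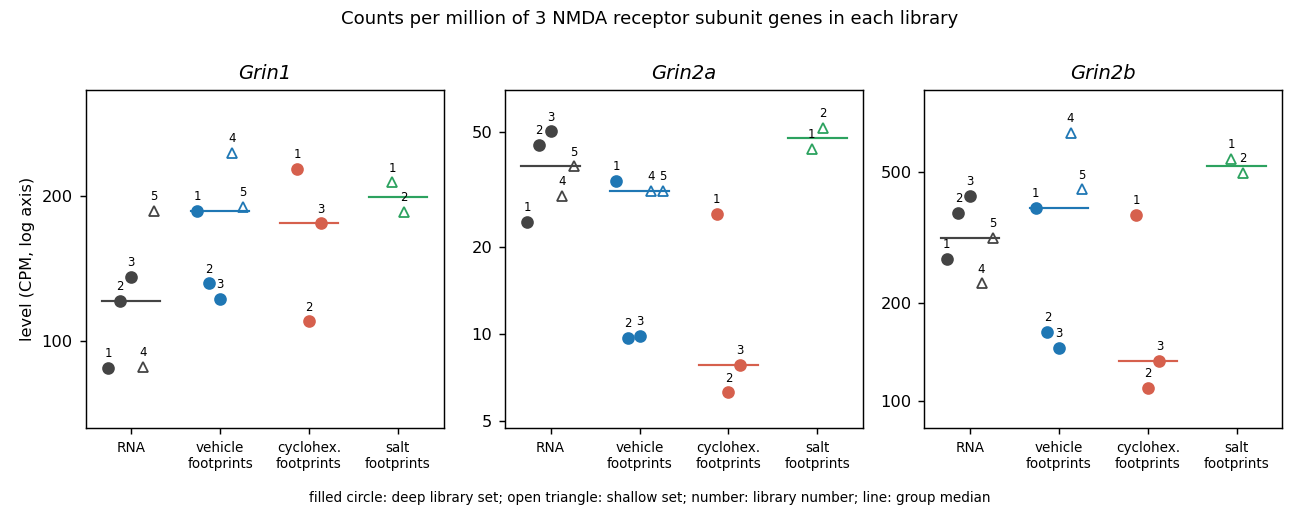
Level of each gene in every library, in CPM on a log axis, by group. Circles are deep and triangles shallow libraries, numbers are library numbers and lines are group medians. Vehicle and cycloheximide libraries 2 and 3 lie lowest among the footprint libraries for Grin2a (6.27 to 9.82 CPM) and Grin2b (110.2 to 163 CPM).

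Grin2a and Grin2b footprints moved in parallel from library to library. Over the 10 footprint libraries the Pearson correlation of their log2(CPM + 1) values was 0.96. Grin2b ranked 65 of 9279 genes by likeness to Grin2a, and Grin2a ranked 197 by likeness to Grin2b. A correlation above 0.9 was shared by many genes, 513 with Grin2a and 720 with Grin2b. The correlations of Grin1 were 0.78 with Grin2a and 0.86 with Grin2b. These values describe libraries that share treatment groups and library sets. No other gene could be named by likeness, because the table's IDs were not paired with symbols.

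The comparison of vehicle footprints with homogenate RNA sets the share of footprints from a gene in the pelleted fraction against its share of RNA-seq counts. In the main fit Grin1 was called higher in footprints than in RNA, while Grin2a and Grin2b did not pass the test. The Grin1 call depended on how libraries were scaled, as given below. Footprints come from translated sequence, whereas RNA-seq fragments can also come from untranslated regions, whose share of a transcript differs between genes. The part of this in any footprint to RNA ratio given here was not tested. Grin1 had 175 ± 50.03 CPM in footprints (SD, n = 5) and 124 ± 40.6 CPM in RNA (SD, n = 5). The fitted log2 ratio was 0.95 (SE 0.26, 95% interval 0.40 to 1.50, edgeR adjusted p = 0.0137), a fold of 1.93. Folds in CPM between same-numbered libraries, which the labels do not pair, were 2.12, 1.09, 0.901, 2.78 and 1.02. Of all 14347 genes tested, 27.9% were called in this comparison, so a call alone does not set Grin1 apart. Its ratio lay at percentile 90.3 of all genes tested.

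The size of the Grin1 ratio depended on how libraries were scaled. The fold of 1.93 uses TMM factors, which bring the bulk of genes in both kinds of library to the same level, with a median log2 ratio of -0.06 over all genes. With total counts only, that median was -0.56, the log2 ratio of Grin1 was 0.49, and the edgeR adjusted p was 0.154, with 33.2% of genes called. Relative to all genes its place did not move much, at percentile 91.3. Scaling whole libraries shifts most genes together, so this percentile is no check on the call.

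For Grin2a the vehicle footprint level was 23.2 ± 12.3 CPM (SD, n = 5) against 37.5 ± 10.54 CPM in RNA (SD, n = 5). The fitted log2 ratio was -0.27 (SE 0.36, 95% interval -1.05 to 0.51, edgeR adjusted p = 0.611), at percentile 41.8 of all genes. For Grin2b the levels were 360.1 ± 214 CPM in footprints (SD, n = 5) and 323 ± 78.4 CPM in RNA (SD, n = 5). Its log2 ratio was 0.59 (SE 0.33, 95% interval -0.11 to 1.30, edgeR adjusted p = 0.196), at percentile 78.0. The CPM ranges of footprints and RNA overlapped for all 3 genes, while footprints lay wholly above RNA for 2.48% of genes and wholly below for 23%.

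**Figure D2:**
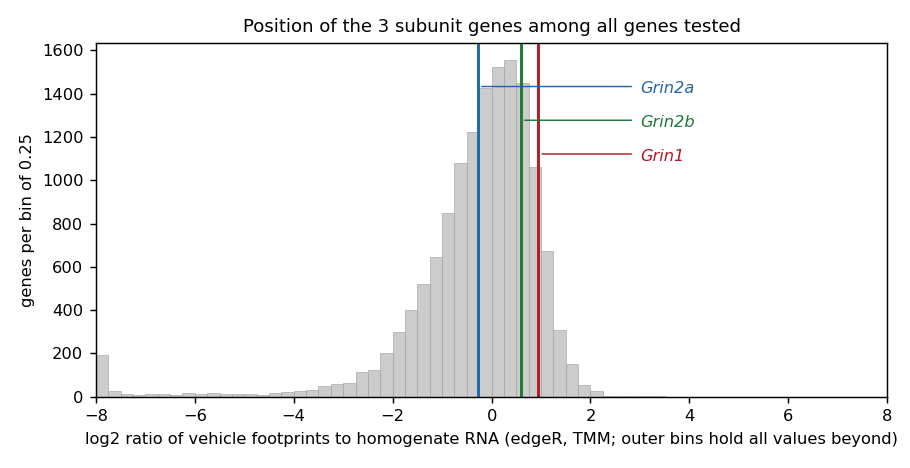
Number of genes (vertical axis) by log2 ratio of vehicle footprints to homogenate RNA (horizontal axis, edgeR with TMM, 5 against 5 libraries). Lines mark Grin2a at -0.27, Grin2b at 0.59 and Grin1 at 0.95.

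The footprint to RNA ratios were also fitted within each library set. The Grin1 ratio was close to the same in both, with a log2 ratio of 0.90 in the deep set (edgeR adjusted p = 0.00799, where 51.3% of genes were called) and 0.92 in the shallow set (edgeR adjusted p = 0.191, where 3.79% were called). With total counts only, these became 0.35 (edgeR adjusted p = 0.201, where 57.2% were called) and 0.66 (edgeR adjusted p = 0.343, where 3.61% were called). Grin2b had a log2 ratio of -0.080 in the deep set (95% interval -0.90 to 0.74, edgeR adjusted p = 0.867) and 1.26 in the shallow set (95% interval 0.67 to 1.85, edgeR adjusted p = 0.0361). With total counts only, the values for Grin2b were -0.63 and 1.01, and the second was no longer called (edgeR adjusted p = 0.0807). In the shallow set both Grin2b footprint levels lay above both RNA levels, which held for 13% of genes in that direction. In the deep set the folds of Grin2b between same-numbered libraries, which the labels do not pair, were 1.43, 0.433 and 0.342. By these folds library 1 stood on the other side from libraries 2 and 3. Grin2a had a log2 ratio of -0.63 in the deep set (edgeR adjusted p = 0.312) and 0.13 in the shallow set (edgeR adjusted p = 0.907).

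Whether the footprint to RNA ratio differed between the sets was tested with an interaction term, which called 2.97% of 14347 genes and none of the 3. For Grin2b the shallow ratio exceeded the deep one by 1.32 on the log2 scale (SE 0.50, 95% interval 0.25 to 2.39, edgeR adjusted p = 0.14). Without vehicle library 1 this difference was 1.81 and passed (edgeR adjusted p = 0.0156), in a fit that called 9.06% of all genes. The share of genes called by this test moved with single libraries: it was 20.9% without vehicle library 5, 2.01% without RNA library 3, and 0.243% to 1.28% without any one of the other libraries. For Grin2a the difference was 0.75 (SE 0.69, edgeR adjusted p = 0.542) and for Grin1 -0.026 (SE 0.43, edgeR adjusted p = 0.995). Depth and library set coincide here and cannot be told apart.

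**Figure D3:**
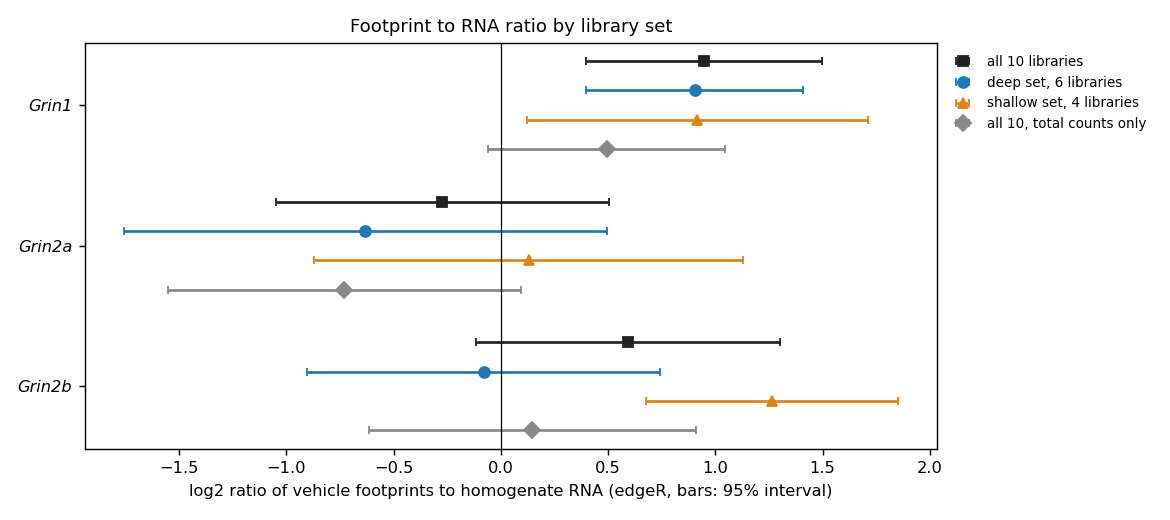
Log2 ratio of vehicle footprints to homogenate RNA (horizontal axis) with 95% intervals from edgeR, for each gene over all 10 libraries, within each library set, and with total counts only. Grin1 stays near 0.9 with TMM in either set, while Grin2b is at -0.080 in the deep set and 1.26 in the shallow set.

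A ratio between genes within a library does not depend on how the library is scaled, so the subunits were next set against each other. Between footprint libraries the lengths of the genes cancel in such a comparison, apart from shifts in the transcript forms used. Between footprints and RNA they need not, since untranslated sequence can add to RNA counts by an amount particular to each gene, and an offset of that kind cannot be told apart here from a difference in footprints per transcript. The 3 ratios were compared in 3 comparisons with exact two-sided permutation tests, and the 9 p-values were adjusted together. These tests are not independent. On the log2 scale the Grin2b:Grin1 difference is the sum of the Grin2b:Grin2a and Grin2a:Grin1 differences. Both ratios with Grin2a rest on the same Grin2a counts.

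The count ratio of Grin2b to Grin2a, the pair of GluN2 genes whose proportion changes as the brain matures, was higher in vehicle footprints than in RNA. In RNA libraries 1 to 5 there were 11.1, 8.34, 8.46, 7.63 and 8.30 Grin2b counts for each Grin2a count. In vehicle footprints 1 to 5 there were 11.5, 16.8, 14.8, 21.2 and 14.1. All 5 footprint libraries lay above all 5 RNA libraries, by a factor of 1.77 on average (log2 difference 0.82, exact permutation p = 0.00794, the smallest 5 against 5 can give, adjusted p = 0.0357). The nearest values were those of vehicle library 1 (95% Wilson interval 10.8 to 12.2) and RNA library 1 (9.75 to 12.7), whose intervals overlapped. The difference was 0.62 in the deep set (exact permutation p = 0.1) and 1.12 in the shallow set (exact permutation p = 0.333). Neither set has enough libraries to go lower, and the ranges did not overlap in either. How often the ratio of other gene pairs separates footprints from RNA was not computed. By CPM, single genes lay wholly above RNA for 2.48% of genes and wholly below for 23%. These shares are of single genes and depend on scaling, unlike a ratio, so whether separation sets this pair apart was not tested.

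The count ratio of Grin2a to Grin1 was lower in vehicle footprints than in RNA. For each Grin1 count there were 0.278, 0.371, 0.369, 0.339 and 0.204 Grin2a counts in RNA libraries 1 to 5 and 0.181, 0.0735, 0.0802, 0.127 and 0.165 in vehicle footprints 1 to 5. Every footprint library lay below every RNA library, and the share of other gene pairs that separate like this was not computed. The footprint ratio was 0.385 times that in RNA on average (log2 difference -1.38, exact permutation p = 0.00794, adjusted p = 0.0357), -1.72 in the deep set (exact permutation p = 0.1) and -0.86 in the shallow set (exact permutation p = 0.333).

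Grin2b against Grin1 gave no such separation. The ratio was 3.10, 3.10, 3.13, 2.59 and 1.69 in RNA libraries 1 to 5 and 2.08, 1.23, 1.19, 2.69 and 2.33 in vehicle footprints 1 to 5. The deep RNA libraries were close to each other (SD 0.0169, n = 3) and above all 3 deep footprint libraries. In the shallow set the ranges overlapped. The log2 difference was -0.56 over all libraries (exact permutation p = 0.111, adjusted p = 0.214), -1.10 in the deep set (exact permutation p = 0.1) and 0.26 in the shallow set (exact permutation p = 0.667).

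**Figure D4:**
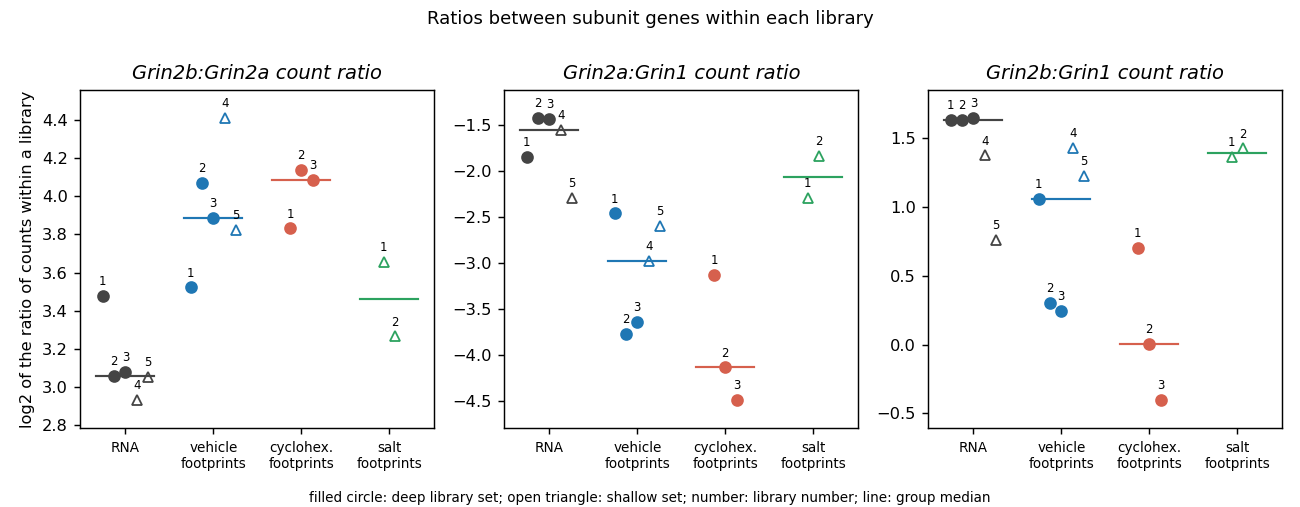
Log2 of the count ratio between subunit genes within each library (vertical axis), by group, with circles for deep and triangles for shallow libraries and lines at group medians. Vehicle footprints lie above RNA for Grin2b:Grin2a (count ratios 11.5 to 21.2 against 7.63 to 11.1) and below it for Grin2a:Grin1, while the groups overlap for Grin2b:Grin1.

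Cycloheximide against vehicle asks whether arresting elongation during homogenisation changed the footprints of the pelleted fraction. None of the 3 genes passed the test, and 0% of the 13939 genes tested were called by edgeR at an adjusted p under 0.05 (65 had an unadjusted p under 0.05, DESeq2 called 1 gene, 0.00717%, and limma-voom 0). Grin1 had 171 ± 58.9 CPM with cycloheximide (SD, n = 3), which gives -0.048 as log2 fold change (SE 0.28, 95% interval -0.67 to 0.57, edgeR adjusted p = 0.99). Grin2a had 13.3 ± 10.95 CPM (SD, n = 3) and a fitted log2 change of -0.79 (SE 0.58, 95% interval -2.07 to 0.49, edgeR adjusted p = 0.977). Grin2b had 204 ± 144 CPM (SD, n = 3) and a fitted log2 change of -0.82 (SE 0.53, 95% interval -1.99 to 0.34, edgeR adjusted p = 0.977). The intervals for both GluN2 genes reach from a large loss to a gain, so these libraries do not show that the levels were the same.

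The levels of both GluN2 genes differed more between library numbers than between treatments within a number. Libraries 1 were high and libraries 2 and 3 low for both GluN2 genes in either group. Grin2a was lower with cycloheximide in 3 of 3 pairs, at 0.768, 0.646 and 0.795 times the vehicle level. Grin2b was lower in 3 of 3 pairs, at 0.952, 0.677 and 0.913 times. Being lower in all 3 pairs held for 10.2% of all genes tested. The labels do not pair these libraries, and only cycloheximide library 1 correlated best with the vehicle library of its own number. Grin1 was at 1.22, 0.834 and 1.43 times. With the library number as a block the log2 fold changes were -0.48 for Grin2a (95% interval -0.80 to -0.15), -0.29 for Grin2b (-0.53 to -0.044) and 0.15 for Grin1 (-0.17 to 0.47). All 3 edgeR adjusted p-values were 1.00, and 0% of genes were called with the block. In the deep set alone, without a block, the log2 fold changes were -0.44, -0.22 and 0.18.

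The subunit ratios with cycloheximide overlapped those of vehicle footprints. Grin2b:Grin2a was 14.2, 17.6 and 17.0 in cycloheximide libraries 1 to 3, a log2 difference of 0.08 from vehicle (exact permutation p = 0.714, adjusted p = 0.714). Grin2a:Grin1 was 0.114, 0.0570 and 0.0445, a log2 difference of -0.83 (exact permutation p = 0.143, adjusted p = 0.214). Grin2b:Grin1 was 1.62, 1.00 and 0.755, a log2 difference of -0.75 (exact permutation p = 0.143, adjusted p = 0.214). Against same-numbered vehicle libraries, both ratios to Grin1 were lower and Grin2b:Grin2a was higher in 3 of 3 pairs, where the smallest exact permutation p is 0.25.

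Salt against vehicle asks whether holding the resuspended pellet at a raised NaCl concentration before digestion changed the footprints. None of the 3 genes passed the test, and 0% of the 11547 genes tested were called by edgeR (894 had an unadjusted p under 0.05, DESeq2 called 22 genes, 0.191%, and limma-voom 5, 0.0433%). Grin2a was highest with salt. Its mean was 47.7 ± 5.83 CPM (SD, n = 2), above all 5 vehicle libraries, and the fitted log2 change was 1.10 (SE 0.55, 95% interval -0.10 to 2.29, edgeR adjusted p = 0.649). Of all genes tested, 6.06% lay above every vehicle library in both salt libraries. Within the shallow set the ratio of mean Grin2a CPM was 1.53, with a fitted log2 change of 0.62 (95% interval -0.54 to 1.77, edgeR adjusted p = 1.00). The 4 libraries did not overlap there either, as for 13.7% of genes in that direction. The Wilson interval of salt library 1 reached into those of vehicle libraries 4 and 5 (24.1 to 40.2 and 25.4 to 38.6 CPM).

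Grin2b and Grin1 with salt were close to the shallow vehicle libraries. Grin2b had 524 ± 36.1 CPM (SD, n = 2). Its log2 fold change was 0.58 against all vehicle libraries (SE 0.49, edgeR adjusted p = 0.758) and -0.060 within the shallow set (95% interval -0.58 to 0.45, edgeR adjusted p = 1.00). Grin1 had 199.5 ± 19.7 CPM (SD, n = 2), with log2 changes of 0.22 (SE 0.30, edgeR adjusted p = 0.851) and, within the shallow set, -0.11 (95% interval -0.72 to 0.49, edgeR adjusted p = 1.00). Both changed sign with the choice of vehicle libraries. With the library number as a block Grin2b was called (log2 change 1.09, edgeR adjusted p = 0.00859, with 4.17% of genes called), but that fit sets shallow salt libraries against deep vehicle libraries 1 and 2.

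The Grin2b:Grin2a ratio was 12.6 and 9.62 in the salt libraries, below vehicle libraries 4 and 5 (14.1 and 21.2) and overlapping the range of all vehicle libraries. The log2 difference was -0.48 (exact permutation p = 0.19, adjusted p = 0.245) and -0.65 within the shallow set (exact permutation p = 0.333). Grin2a:Grin1 was 0.204 and 0.279, above all 5 vehicle libraries, a log2 difference of 1.02 (exact permutation p = 0.0952, the smallest that 2 against 5 can give, adjusted p = 0.214). Within the shallow set this difference was 0.72 (exact permutation p = 0.333). The lowest vehicle values were those of deep libraries 2 and 3 (0.0735 and 0.0802). How often other gene pairs separate salt from vehicle libraries was not computed. Grin2b:Grin1 was 2.57 and 2.68, within the vehicle range, a log2 difference of 0.54 (exact permutation p = 0.286, adjusted p = 0.321). Within the shallow set the Grin2b:Grin1 difference was 0.069.

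**Figure D5:**
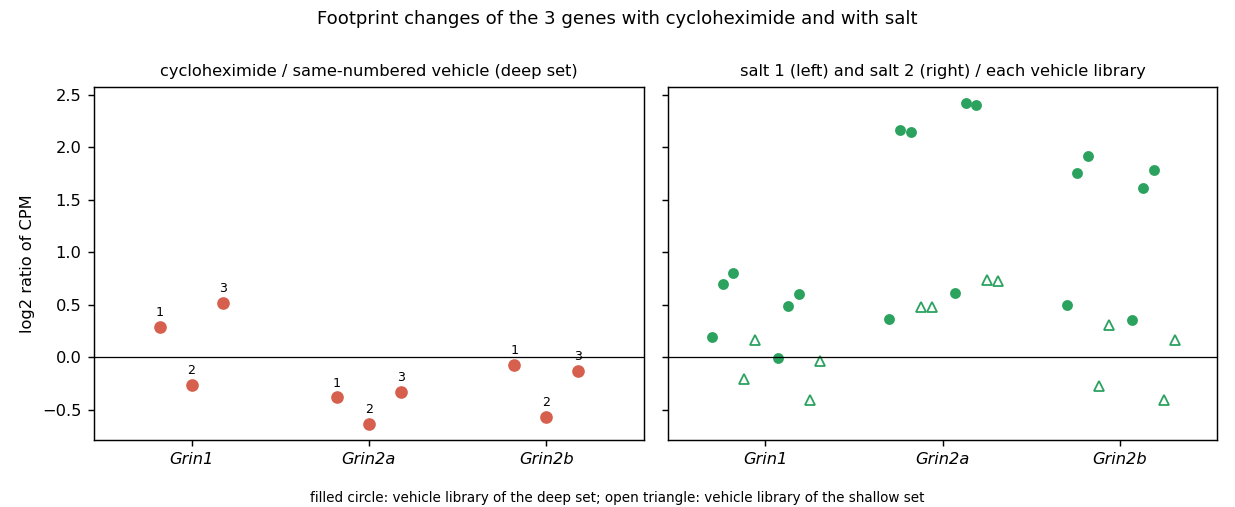
Log2 ratio of CPM for each gene (vertical axis). The left panel sets each cycloheximide library against the vehicle library of the same number, where Grin2a and Grin2b lie below 0 in 3 of 3 pairs. The right panel sets salt libraries 1 and 2 against each vehicle library, where circles are deep and triangles shallow vehicle libraries and Grin2a lies above 0 throughout.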

How the data were processed

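The authors deposited raw read counts per Ensembl rat gene ID, 22050 genes in 15 columns. CASAVA, cutadapt 2.8, Bowtie2 2.3.5, STAR 2.7.3a, deepTools and the build Rnor_6.0 are named, without roles, in the submitters' processing notes; the counting program and annotation are not given in the sources used here. Groups and numbers come from the titles. After 6 genes with empty cells were left out, 22044 were used.

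Fits ran over all genes passing filterByExpr (1 alternative left the filter out) in R 4.3.3: edgeR 4.0.16 quasi-likelihood F-tests with TMM factors and robust dispersions, Benjamini-Hochberg adjusted over all genes, threshold 0.05. SE is the absolute log2 fold change divided by the square root of F. Alternatives used DESeq2 1.42.0 and limma 3.58.1. Subunit ratios were tested by exact permutation in Python 3.11.15 with scipy 1.17.1. The fitting code was run on simulated counts with planted changes larger than those reported here and no difference between library sets. That run therefore does not show how the fits perform on changes of the size reported here. Wilson intervals (95%) for RNA-seq used halved counts, because 88.4% to 97.7% of nonzero RNA-seq values were even (15 of 15 for the 3 genes), the pattern of counting both mates of a pair.

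Cycloheximide and vehicle libraries were checked for pairing by number (correlations across 12018 genes 0.84, 0.46 and 0.44 for numbers 1 to 3; cycloheximide libraries 2 and 3 correlated better with another vehicle number, 0.54 and 0.61). The main fits did not treat the numbers as pairs, and the number entered as a block only in alternative fits. These correlations do not establish pairing, because the labels give none and only cycloheximide library 1 correlated best with its own number. For salt the check compares 2 libraries with 2, so it gives the same value with either sign (0.12 and -0.12) and cannot decide pairing. Counts over same-numbered pairs and fits with the number as a block therefore describe library numbers, not known pairs.

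The 3 genes always named, and the gene lists, were chosen with earlier results of these data known. The naming rule also covered other glutamate receptor genes, postsynaptic genes and the genes most alike, and 8 gene lists (69 symbols) and 6 marker lists had been written for it. None could be matched to the Ensembl IDs, so they are not analysed here.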

Additional observations from a re-analysis of the deposited data

Results flagged for a closer look

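Among 12 sets of values searched for 1 library standing apart, 1 was found, where chance gives about 0.6 (1 in 20). The Grin2b:Grin2a count ratio of RNA library 1 was 11.1, against 7.63 to 8.46 in the other 4 RNA libraries. RNA library 1 also had the lowest Grin2a level of the RNA libraries, 24.4 CPM. Without it the log2 difference between footprints and RNA was 0.91 in place of 0.82.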

How the results depend on the processing

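Of 321 alternative values, 264 changed neither sign nor call, 30 lost a call, 3 gained one and 24 changed sign. Most of the 264 were uncalled values that stayed uncalled. Only Grin1 and the Grin2b:Grin2a and Grin2a:Grin1 ratios, footprints against RNA, had a call to lose, and all 30 losses were theirs. Both ratios lost the call in each of the 10 fits that left out 1 library. The list counts planned could not be computed, because no list symbol was matched. Total-count fits within a set were chosen after seeing the data.

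For Grin1 footprints against RNA, the log2 ratio was not called with total counts only (0.49), in the shallow set (0.92) or with total counts in the deep (0.35) and shallow set (0.66). Grin2a changed sign in the shallow set (0.13). Grin2b was -0.080 in the deep set (-0.63 with total counts) and called in the shallow set (1.26). The number of genes called in footprints against RNA was 3998, against 7869 in the deep set, 441 in the shallow set and 6048 with limma-voom. The Grin1 interaction, near 0, changed sign with RLE (0.13), upper-quartile (0.19) and total-count scaling (0.31).

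The small cycloheximide change of Grin1 was positive with limma-voom (0.0084), the replicate block (0.15), the deep set (0.18) and the set as covariate (0.19). With salt, Grin1 was -0.11 in the shallow set and -0.10 with the set as covariate, and Grin2b was -0.060 and -0.048. Under the replicate block Grin2b with salt was called (1.09, edgeR adjusted p = 0.00859, with 4.17% of genes called), but that block pairs the shallow salt libraries with deep vehicle libraries 1 and 2 (correlation 0.12). The block changed no call in the cycloheximide fits or for the 3 genes in footprints against RNA, where correlations of same-numbered libraries ran from -0.082 to 0.24 and the numbers do not pair samples.

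Footprints against RNA, the Grin2b:Grin2a difference was 0.82 under the replicate block, 0.62 in the deep and 1.12 in the shallow set, and that of Grin2a:Grin1 -1.38, -1.72 and -0.86. None passed, since the smallest exact p of these smaller designs is above 0.05 before adjustment. Grin2b:Grin1 was 0.26 in the shallow set.

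Leaving out each library in turn gave these ranges. Footprints against RNA: Grin1 0.85 to 1.19, Grin2a -0.46 to -0.077, Grin2b 0.32 to 0.78, Grin2b:Grin2a 0.70 to 0.93, Grin2a:Grin1 -1.53 to -1.21, Grin2b:Grin1 -0.72 to -0.40. Grin1 stayed called in all 10 fits, which called 22.0% to 38.0% of all genes. Both called ratios had an exact permutation p of 0.0159 in each, the smallest that 4 against 5 can give, and an adjusted p of 0.0714. Cycloheximide: Grin1 -0.29 to 0.19, Grin2a -1.68 to -0.45, Grin2b -1.54 to -0.52, with the lower ends without cycloheximide library 1, and ratios -0.029 to 0.19, -1.22 to -0.54 and -1.05 to -0.50 in the order above. Salt: Grin1 0.11 to 0.34, Grin2a 0.90 to 1.26, Grin2b 0.37 to 0.89, ratios -0.68 to -0.28, 0.80 to 1.25 and 0.39 to 0.69 (a lone salt library is assumed to vary like the vehicle group). Interaction: Grin1 -0.24 to 0.58, Grin2a 0.47 to 1.51, Grin2b 1.08 to 1.81. The cause of these shifts was not tested.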
